A study of Rattus norvegicus with 98 samples.

Results

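H3K27ac in MDT, the mediodorsal (dorsomedial) thalamus, was compared between rats given fluoxetine (FT) and rats given water (Sham). The comparison holds 4 libraries of the 94 whose peak lists were analysed here, namely those titled Sham-MDT and FT-MDT, replicates 1 and 2. They are 2 libraries per treatment from 1 of 25 brain regions. The animals were male Long-Evans rats, healthy, not stressed beforehand and 2 months old when divided into the treatment groups. FT rats drank fluoxetine at 18 mg per kg body weight per day for 6 weeks, and Sham rats drank water without the drug. Tissue was taken after these 6 weeks. Each library was made from frozen tissue punches pooled over several animals, and the pool of a replicate supplied every region of that replicate. A library is therefore a pool and not an animal, and the spread between replicates is a spread between pools and their preparation.

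Acetylation of lysine 27 of histone H3 (H3K27ac) marks active promoters and enhancers, and its loss or gain at a site is commonly read as a change in the activity of that element. Fluoxetine blocks the serotonin transporter, so that serotonin released by raphe neurons stays longer outside the cell. The mediodorsal thalamus is a higher-order relay nucleus, linked in both directions with the prefrontal cortex, and takes part in working memory and flexible behaviour. Its principal cells are glutamatergic relay neurons, and a punch also holds astrocytes, oligodendrocytes, microglia and vessel cells. In such tissue, a changed share of a cell type and a changed acetylation per cell cannot be told apart.

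The MDT lists were compared with those of the other regions, since no gene annotation of the build was used and marker genes could not be looked up. Such a comparison shows likeness between lists and cannot establish which tissue was punched. Over the 10000 best-scoring peaks of each list, divided into 1 kb windows, the Jaccard index (windows held by both lists over windows held by either) of the MDT Sham pair was 0.728. MDT Sham lists shared most with those of LH, the lateral hypothalamus (0.677), then with MS, the medial septum (0.652), and least with PAG, the periaqueductal grey (0.315), leaving HB aside. The FT pair of MDT reached 0.807, and LH was again closest among the other regions, at 0.705. Among the neighbours of MDT in the thalamus and epithalamus, PVN (the paraventricular thalamic nucleus) gave 0.614 in Sham and 0.647 in FT, and HB (the habenula) gave 0.667 in FT. In order of likeness among the 24 other regions, PVN came 9 in Sham and 8 in FT, and HB came 5 in FT. The Sham list of HB stood apart from all MDT lists, with 3.23% of its 11425 windows in any of them against 84.2% of 79761 in its FT list. MDT lists were thus more like each other than like those of any other region, in both treatments.

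In MDT each FT list exceeded each Sham list in length, and the margin depended on Sham replicate 2. Sham replicate 1 had 47740 peaks and Sham replicate 2 had 39756, while FT replicate 1 had 48230 and FT replicate 2 had 50507. The groups did not overlap, but FT replicate 1 exceeded Sham replicate 1 by few peaks. The mean was 49369 ± 1610 peaks in FT and 43748 ± 5646 in Sham (SD, n = 2 each), a log2 ratio of 0.17. It was 0.048 with Sham replicate 2 left out and 0.31 with Sham replicate 1 left out. Peaks covered 73.9 and 62.5 Mb in the Sham lists and 81.8 and 84.0 Mb in the FT lists, a log2 ratio of 0.28 that was 0.17 without Sham replicate 2. With 2 libraries against 2, an exact two-sided permutation test has 3 ways to divide the libraries and cannot go below p = 0.333, which was its value for both measures. No difference in MDT can therefore pass a threshold of 0.05 by this test, and the values below are read against the other ways to divide the same libraries. The lists hold no read counts, so the depth behind each list is unknown, and a longer list cannot be told apart from deeper sequencing or better enrichment.

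Peaks were also wider in the FT lists. The median width was 1500 and 1600 bp in Sham replicates 1 and 2 and 1700 bp in both FT replicates. Peaks of 2000 bp or more made up 26.9% and 26.6% of the Sham lists and 34.7% and 33.3% of the FT lists. Peaks under 1000 bp made up 19.7% and 16.7% of the Sham lists and 11.8% and 13.9% of the FT lists. Neither share overlapped between treatments. The widest peak was 6600 bp in both Sham lists and 6400 bp in both FT lists. The log2 ratio of the median widths was 0.13 (exact permutation test, p = 0.333) and stayed at 0.13 with all lists reduced to the 39756 peaks of highest score.

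**Figure D1:**
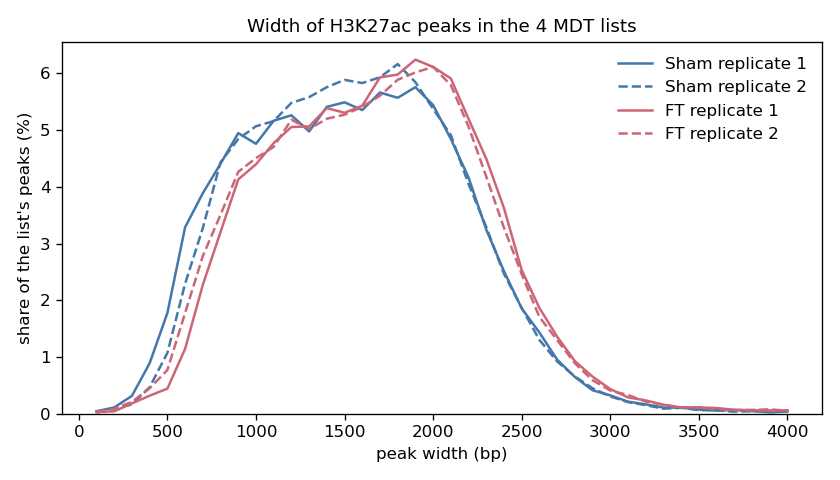
Share of each MDT list's peaks (y, %) by peak width (x, bp, in steps of 100 bp), as lines for the 2 Sham and 2 FT libraries. Over most widths the FT lines lie to the right of the Sham lines, with medians of 1700 bp against 1500 and 1600 bp.

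Where the mark was gained or lost was asked with windows of 1 kb, each called occupied when the peaks of a library covered 50% of it or more. A window was FT-only when both FT libraries and neither Sham library occupied it, and Sham-only in the reverse case. The full lists occupied 73647, 62401, 81749 and 83857 windows in Sham replicates 1 and 2 and FT replicates 1 and 2, and 102950 windows in any of them. Of those, 7050 were FT-only (6.85%) and 766 were Sham-only (0.744%), so that 90.2% of the windows separated by treatment were FT-only. The same 4 libraries divided by replicate number gave 2112 and 1041 windows, and divided crosswise (Sham replicate 1 with FT replicate 2 against the others) 2657 and 1150. The treatment thus separated 7816 windows against 3153 and 3807, or 2.25 times the mean of the other divisions (log2 ratio 1.17, exact permutation test, p = 0.333).

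The excess over the other divisions persisted on shortened lists, whereas the excess of FT-only over Sham-only windows depended on how the lists were shortened. With every list reduced to its 39756 best-scoring peaks, 5023 windows were FT-only (5.39% of 93154) and 1062 were Sham-only (1.14%), an FT-only share of 82.5%. The division by replicate then separated 2836 windows and the crossed division 3259, and the log2 ratio was 0.998. FT lists of the same number of peaks still covered more of the genome, with 73917 and 74019 windows against 67753 and 62401 in Sham. With the lists reduced to an equal number of occupied windows instead, 2965 windows were FT-only (3.54% of 83740) and 2354 Sham-only (2.81%), and the FT-only share was 55.7%. The treatment division still exceeded the replicate division (2311 windows) and the crossed division (2796 windows), by a log2 ratio of 1.06. Of the 7050 FT-only windows on the full lists, 2600 were FT-only on all 3 versions of the lists, as were 395 of the 766 Sham-only windows. Of the 2354 Sham-only windows at equal occupancy, 83.2% were occupied in at least 1 full FT list, from which their weaker peaks had been removed.

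**Figure D2:**
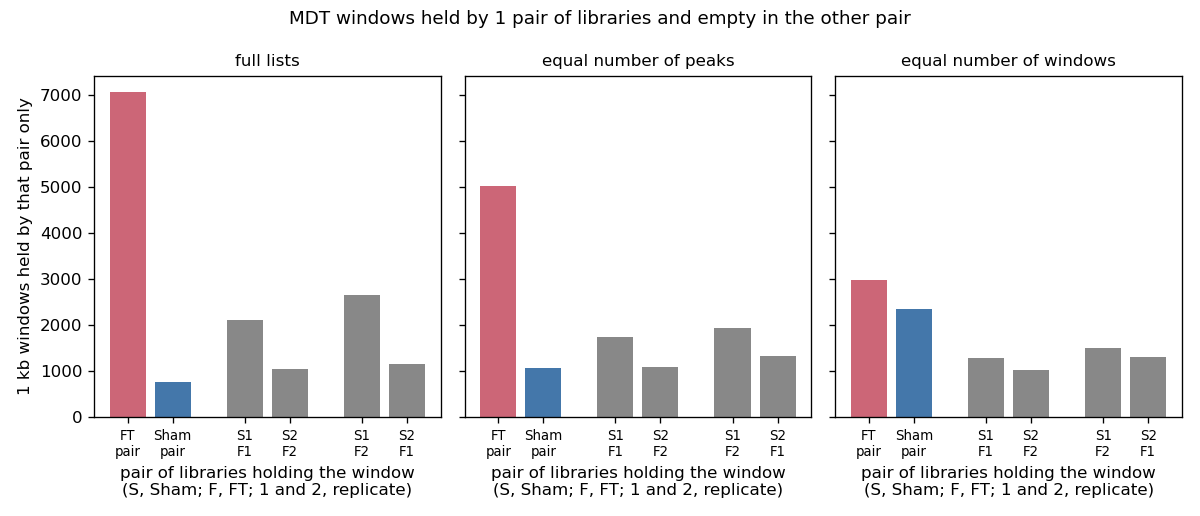
Number of 1 kb windows (y) held by 1 pair of MDT libraries and empty in the other pair, for the treatment pairs (red FT, blue Sham) and the other pairings (grey), on 3 versions of the lists. The FT bar falls from 7050 to 5023 and 2965 while the Sham bar rises from 766 to 1062 and 2354.

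The replicates of MDT were not equally alike. At an equal number of peaks, the FT pair had a Jaccard index of 0.776 and the Sham pair 0.670. FT replicates 1 and 2 shared more with Sham replicate 1 (0.718 and 0.717) than the Sham replicates shared with each other. With Sham replicate 2 they gave 0.672 and 0.662, near the value of the Sham pair. Sham replicate 1 was therefore closer to the FT libraries than to its own replicate, on all 3 versions of the lists. Windows missing from Sham replicate 2 alone numbered 7436, against 3427 missing from Sham replicate 1 alone, 1299 from FT replicate 2 alone and 1094 from FT replicate 1 alone. With FT replicate 1 or 2 left out, the log2 ratio on lists of equal peak number fell to -0.025 and -0.091, so that the remaining FT library stood apart no more than a Sham library did. With Sham replicate 1 or 2 left out, it was 0.94 and 0.58. At an equal number of peaks, the ratio above 0 thus rested on both FT libraries being present. On the full lists, leaving out FT replicate 1 gave a ratio of 0.20, and leaving out FT replicate 2 gave 0.040.

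**Figure D3:**
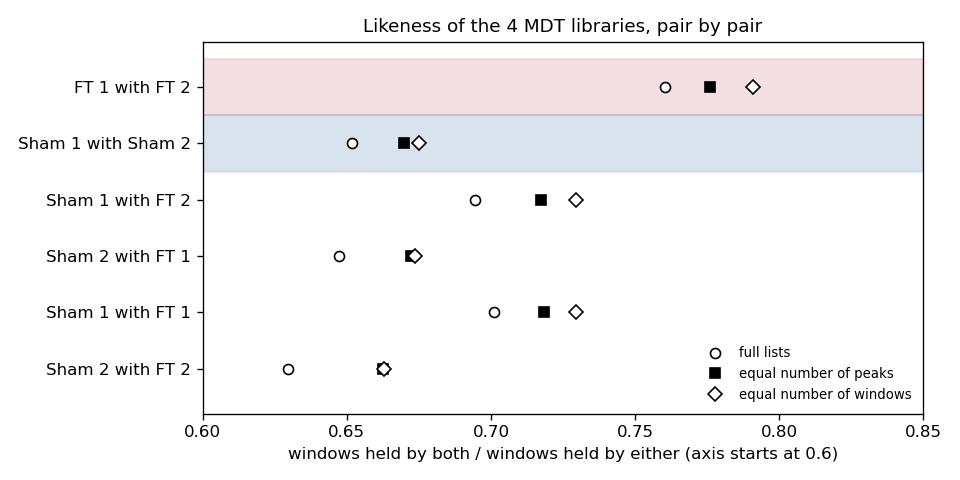
Jaccard index of 1 kb windows (x, from 0.6) for the 6 pairs of MDT libraries, with open circles for full lists, filled squares for an equal number of peaks and diamonds for an equal number of windows. The FT pair (red band) is highest at 0.776 on filled squares, and the Sham pair (blue band) at 0.670 lies below both pairings of Sham replicate 1 with FT.

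Most windows separated by treatment were single, and more than 50% of them were partly covered in the other treatment. On the full lists, 58.0% of the 7050 FT-only windows were covered in part by a Sham peak, below the 50% that counts as occupied, and 51.7% adjoined a window that a Sham library occupied. Sham-only windows gave 52.1% and 45.6%. The sides of the replicate and crossed divisions gave 53.1% to 72.3% and 47.6% to 65.5%, so these traits were not particular to treatment. Of the FT-only loci (adjoining windows joined), 94.5% were a single window and the longest had 2 windows. Single windows made up 97.3% to 99.1% of the loci on the sides of the replicate and crossed divisions. The peaks behind FT-only windows lay at a median score percentile of 27.2 in the weaker FT library, where 100 is the best peak of the list, and those behind Sham-only windows at 18.6. The replicate and crossed divisions gave medians of 19.4 to 26.9. No base was covered by either library of the other treatment in 2960 FT-only and 367 Sham-only windows, against 1210 for the replicate and 1565 for the crossed division. These made up 42.0% of the FT-only and 47.9% of the Sham-only windows. The shares were 40.0% and 35.1% for the sides of the replicate division, and 46.9% and 27.7% for those of the crossed division.

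The separated windows with the strongest peaks were partly covered in all 4 libraries. At chr8:84778001-84779000, Sham peaks covered 494 and 490 bp and FT peaks 527 and 509 bp, on either side of the 500 bp that counts. The peak there was 2400 and 2500 bp wide in Sham and 2600 and 2500 bp in FT, with normalised tag counts of 23 and 19 in Sham and 29 and 26 in FT. Its score percentile was 99.97 in all 4 libraries. Tag counts differ in scale between libraries, with a highest value of 42 and 32 in the Sham lists and 51 and 50 in the FT lists. At chr10:45927001-45928000, chr7:123041001-123042000, chr8:114530001-114531000 and chr7:12147001-12148000, Sham peaks covered 475 to 499 bp and FT peaks 509 to 627 bp. The difference was larger at chr4:58262001-58263000, with 200 and 426 bp in Sham and all 1000 bp in both FT libraries. The 200 bp in Sham replicate 1 lay under 2 peaks. The widest peak there was 2700 and 3000 bp in Sham and 3900 and 4100 bp in FT. The 6 best-scoring Sham-only loci, at chr11:47365001-47366000, chr12:19402001-19403000, chr8:45708001-45709000, chr18:64346001-64347000, chr10:45910001-45911000 and chr20:5282001-5283000, were also held in part by FT peaks, by 332 to 491 bp against 503 to 788 bp in Sham. At each of these loci all 4 libraries had a peak, so they show a difference in how far peaks reach and not an element present in 1 treatment.

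Loci free of any peak base in the other treatment were ranked by score after these values had been seen. The 4 FT-only loci of this kind with the best scores were chr16:77576001-77577000, chr15:8220001-8221000, chr1:213841001-213842000 and chr3:180378001-180379000, at percentiles of 80.9 to 92.8 in the weaker FT library. FT peaks covered 513 to 1000 bp of each window, the widest peak of a library there was 3500 to 4800 bp, and the nearest Sham peak was 95 to 371 bp away. Of the 9 FT peaks over these 4 loci, 8 overlapped a peak of Sham replicate 1 elsewhere along their length, and 8 a peak of Sham replicate 2. At chr1:213841001-213842000, for example, the FT peaks were 4600 and 4800 bp wide and covered the whole window, whereas the Sham peaks ended 217 and 95 bp from it. Among Sham-only loci, chr1:50936001-50937000 scored best, with 683 and 595 bp covered in Sham and the nearest FT peaks 192 and 226 bp away. Both Sham peaks there overlapped a peak of each FT library elsewhere along their length. The locus chr20:5300001-5301000 stood free of FT peaks, with 2000 and 1700 bp peaks in Sham and the nearest FT peaks 9953 and 4668 bp away. It was also occupied in 35 of 45 Sham and 12 of 45 FT libraries of the other regions, which came from the same pools of animals.

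Over longer stretches the direction again depended on how much of the genome the lists covered. With windows of 5 kb, 494 were FT-only and 15 were Sham-only on the full lists, and 97 and 136 separated the libraries by replicate and crosswise. A 5 kb window was also occupied at 50% coverage, which is more than a peak of median width spans. It therefore took a wide peak or several peaks. Peaks of 3000 bp or more made up 1.42% and 1.36% of the Sham lists and 2.00% and 1.95% of the FT lists. Shares of all occupied 5 kb windows were not computed. With lists reduced to an equal number of occupied 5 kb windows, a setting chosen after seeing the data, 188 were FT-only and 200 Sham-only, against 50 and 82 for the other divisions. Loci of 2 or more 1 kb windows numbered 410 FT-only and 31 Sham-only at an equal number of peaks, and 192 and 217 at equal occupancy. They made up 8.89% of the FT-only and 3.01% of the Sham-only loci at an equal number of peaks. At equal occupancy they made up 6.93% and 10.2%. No locus at an equal number of peaks was longer than 2 kb, and the 4 FT-only loci of that length with the best scores in the weaker library were chr13:54219001-54221000, chr10:88300001-88302000, chr1:125763001-125765000 and chr8:114439001-114441000. At the first, peaks were 2700 and 2800 bp wide in Sham and 3800 and 5900 bp in FT, with tag counts of 20 and 16 against 29 and 25. Its score percentiles were 94.7 and 91.7 in Sham and 91.4 and 91.8 in FT, so within its list it did not score higher in FT. The last had a 1500 bp peak in both FT libraries, with tag counts of 25 and 22, and no Sham peak nearer than 294 and 490 bp. The 4 Sham-only loci of 2 kb with the best scores were chr3:168722001-168724000, chr8:26394001-26396000, chr17:33282001-33284000 and chr1:177398001-177400000. At the first of these the Sham peaks were 3800 and 3900 bp wide. FT replicate 2 had a 600 bp peak and FT replicate 1 had none, its nearest peak lying 93 bp away. Both Sham peaks overlapped a peak of each FT library elsewhere along their length.

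FT-only windows occurred on all 20 autosomes and the X chromosome. They made up 5.49% (X) to 7.81% (chromosome 8) of the occupied windows of a chromosome on the full lists, and Sham-only windows 0.40% (chromosome 6) to 1.09% (chromosome 1). In 1 Mb bins, 1926 of 2607 bins with any occupied window held an FT-only window, with a median of 3 and at most 22 per bin. The fullest bin was chr3:17000001-18000000, where 22 of 169 occupied windows were FT-only. Sham-only windows gathered in chr1:1-1000000, where 6 of 11 occupied windows were Sham-only and no FT peak covered any base of them. These 6 windows were occupied on average in 63.7% of the Sham and 49.6% of the FT libraries of the other regions, whereas windows of any MDT list were occupied in 44.8% of the Sham and 57.9% of the FT libraries. Another 6 lay in chr20:5000001-6000000, among 95 occupied windows, with 41.5% of Sham and 33.7% of FT libraries of the other regions.

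Elements present in all 4 lists were wider in FT, by a small margin at most of them. Joined stretches under any MDT peak numbered 60564, and 33802 of them (55.8%) were covered in all 4 libraries. A further 3014 were covered in both FT and neither Sham library and 551 in the reverse case, against 1086 and 510 by replicate and 1677 and 413 crosswise. In the 33802 shared elements the median covered width was 1800 and 1700 bp in Sham and 1900 bp in both FT libraries. Both FT libraries were wider than both Sham libraries at 14543 elements (43.0%) and narrower at 544 (1.61%). By replicate, 2560 and 1142 elements separated in this way, and crosswise 2756 and 1541, so the treatment division was 3.77 times the mean of the others. The median FT to Sham width ratio was 1.09 (log2 0.12). On the log2 scale it was 0.087 with Sham replicate 2 left out and 0.15 with Sham replicate 1 left out.

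The widening was larger at weak elements than at strong ones. With elements placed in 4 bins by their mean tag count rank, the median log2 width ratio was 0.23 in the lowest bin, 0.18 and 0.12 in the middle bins and 0.064 in the highest. In base pairs the medians were 1250 in Sham and 1450 in FT in the lowest bin, and 2250 and 2350 in the highest. Wider elements made up 37.0% to 47.9% of each bin and narrower ones 1.07% to 2.94%, so the direction held from weak to strong elements.

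The ranks of elements moved in both directions. Each element's normalised tag count was ranked within its library, which removes differences of scale between libraries. Ranks in FT lay above both Sham ranks at 5805 elements (17.2%) and below both at 7293 (21.6%), together 13098, against 10472 by replicate and 10191 crosswise. This excess over the other divisions was a log2 ratio of 0.34, far under the 1.92 for width. The side with more elements depended on the measure: ranked by tag count per kb of peak, 9461 elements were higher and 5369 lower in FT, and ranked by filter score, 6500 were higher and 6605 lower. Rank correlations between libraries over these elements were 0.959 for the FT pair, 0.902 for the Sham pair and 0.902 to 0.934 for FT with Sham. Elements whose rank was higher in FT were wider in FT in 58.8% of cases, those whose rank was lower in 31.6%, and those whose ranks overlapped in 42.6%. Tag counts were whole numbers with many ties, with a median of 4 to 6 per library among these elements, which limits how finely ranks can be read.

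The element whose rank rose most, at chr4:235024507-235025441, had tag counts of 4 and 3 in Sham and 11 and 9 in FT. Its rank percentile was 34.7 and 16.5 in Sham and 83.7 and 80.7 in FT, and its covered width was 300 and 200 bp in Sham and 800 and 900 bp in FT. It was occupied in 1 other region. The next, at chr10:91556923-91559546, had tag counts of 4 and 3 against 8 and 8 and widths of 1900 and 1800 bp against 2500 and 2500 bp. The elements at chr4:183066642-183069006 and chr5:140896255-140898555 both had tag counts of 3 and 3 in Sham and 7 and 6 in FT. That FT ranks lay above both Sham ranks in these 4 elements was set by the rule that picked them. In each of them both FT libraries were also wider than both Sham libraries. The elements whose rank fell most, at chr2:97588563-97590701, chr15:35327102-35328322, chr1:212131718-212133005 and chr1:33554493-33556117, had tag counts of 3 to 5 in every library. The first of them had 5 and 5 in Sham and 5 and 4 in FT, at percentiles of 56.5 and 68.1 against 26.8 and 18.8. In tag count these falls are thus steps of at most 2. The median tag count over shared elements was 5 and 4 in Sham and 6 in both FT libraries. Steps in the tag count therefore do not measure the falls in rank.

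Most changed windows of MDT were active in other regions, in the sense of being occupied in some library there. At an equal number of peaks in MDT, 4321 of the 5023 FT-only windows (86.0%, 95% Wilson interval 85.0 to 87.0, for counting error only) were occupied in at least 1 of the 24 other regions (85.5% with HB left out). Among Sham-only windows it was 1033 of 1062 (97.3%, interval 96.1 to 98.1). Windows held by all 4 MDT libraries were occupied elsewhere in 99.3% of cases, and windows separating the libraries by replicate or crosswise in 93.9% and 93.6%. FT-only windows were therefore below, and Sham-only windows above, the windows of the other divisions. Without Sham replicate 1, the shares were 91.3% for FT-only and 89.4% for Sham-only windows, so Sham-only windows were no longer above FT-only windows. Without Sham replicate 2, the shares were 89.0% and 92.1%. Leaving out a Sham library also loosens the rule, since only the other Sham library has to hold or lack the window. The shares of the other divisions were not recomputed in this way. The median window was occupied in 11 other regions if FT-only, in 14 if Sham-only and in 24 if held by all 4 libraries. On the full lists, 5885 of 7050 FT-only windows (83.5%) and 742 of 766 Sham-only windows (96.9%) were active elsewhere. Of FT-only windows free of any Sham peak base, 2236 of 2960 (75.5%) were active elsewhere.

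**Figure D4:**
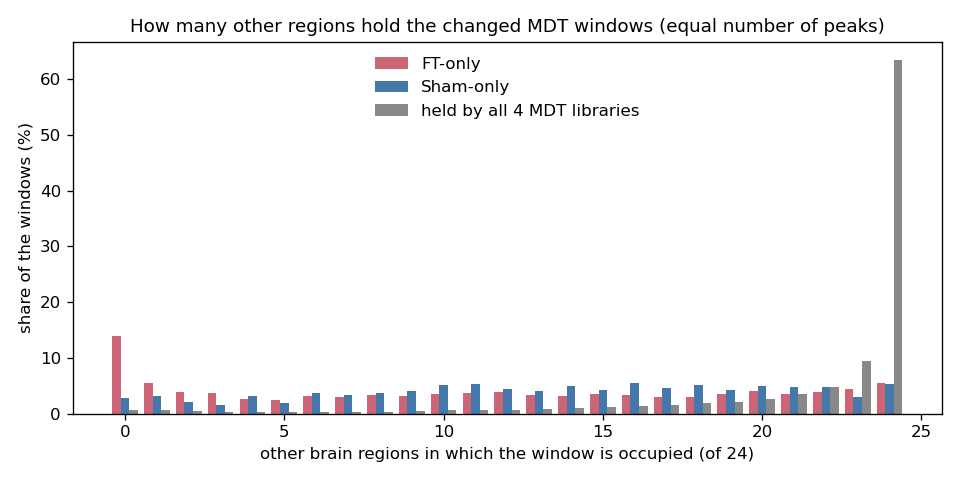
Share of MDT windows (y, %) by the number of other regions in which they were occupied (x, 0 to 24), for FT-only (red), Sham-only (blue) and windows of all 4 libraries (grey), at an equal number of peaks. FT-only windows have a bar of 14.0% at 0 regions against 2.73% for Sham-only, and 63.5% of the windows of all 4 libraries stand at 24.

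Occupancy elsewhere was highest in LH for both directions. LH libraries occupied 60.4% of the FT-only windows and 81.3% of the Sham-only windows of MDT. Snt (nucleus of the solitary tract) followed for Sham-only windows with 75.7%, and Raphe, whose neurons supply the forebrain with serotonin, with 72.8%. For FT-only windows these regions gave 55.9% and 57.3%. PAG gave the lowest shares, 34.4% of FT-only and 28.2% of Sham-only windows, and was the only region where FT-only windows were occupied more often at an equal number of peaks. On the full lists this also held in HB, with 40.4% against 38.6%. The neighbours PVN and HB held 46.3% and 44.1% of the FT-only windows and 54.4% and 47.9% of the Sham-only windows, on 2 libraries each where most regions had 4. These shares also follow the length of each region's lists and were not tested.

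**Figure D5:**
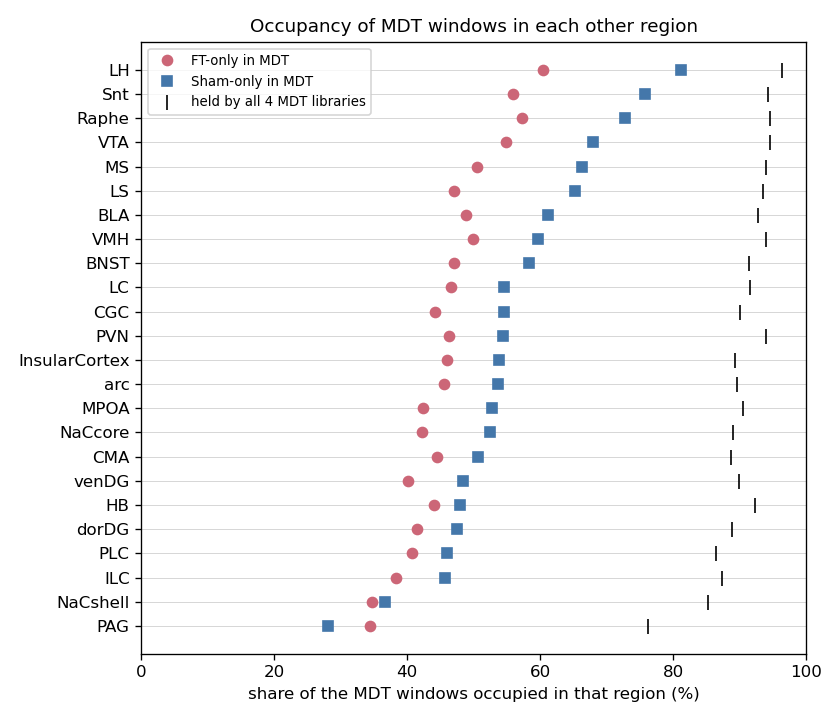
Share of MDT windows (x, %) occupied in any library of each other region (y), for FT-only (red circles), Sham-only (blue squares) and windows of all 4 MDT libraries (black bars), at an equal number of peaks. Sham-only squares lie to the right of FT-only circles in each region but PAG, and LH is highest with 60.4% and 81.3%.

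FT-only windows of MDT were also more often occupied in the FT libraries of other regions, as were windows of the other divisions. In the 20 other regions with 2 libraries per treatment, each reduced to its own shortest list, FT libraries occupied the FT-only windows of MDT more often than Sham libraries did by 8.64 ± 5.17 percentage points (SD over regions), and in 19 regions. The exception was venDG, the ventral dentate gyrus, at -2.26, and the largest difference was 20.5 in MS. For all windows of any MDT list, the difference was 5.78 ± 5.16 points, above 0 in 18 regions, which is the level the former is read against. For the Sham-only windows of MDT it was 0.19 ± 3.77 points, from -9.09 in dorDG to 6.87 in LH. A median of 4.13% of the FT-only windows of MDT were FT-only in another region as well and 0.408% were Sham-only there. The same medians were 2.60% and 0.522% for windows of any MDT list, and 2.17% and 1.69% for the Sham-only windows. Over the full lists of all other regions, FT-only windows were occupied on average in 35.0% of FT and 19.9% of Sham libraries. Windows of the replicate division gave 39.0% and 24.1%, and those of the crossed division 38.5% and 23.9%. An excess in FT libraries was thus not particular to FT-only windows. The same animals supplied all regions within a replicate, so these regions are not independent of MDT and no test was made.

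Windows found in MDT and in no other region were few, and more of them were FT-only than Sham-only. On the full lists, 6730 windows of any MDT library (6.54%) were occupied nowhere else. Of them, 456 were held by all 4 MDT libraries, which is 0.897% of the windows held by all 4. Sham replicates 1 and 2 held 2165 and 1381 such windows and FT replicates 1 and 2 held 3850 and 4251. Of these windows, 1165 were FT-only and 24 Sham-only, against 243 and 267 that separated the libraries by replicate and crosswise. They made up 16.5% of all FT-only and 3.13% of all Sham-only windows. The shares were 7.71% of the windows of the replicate division and 7.01% of those of the crossed division. At an equal number of peaks, 702 (14.0% of the FT-only) and 29 (2.73% of the Sham-only) windows were of this kind. At equal occupancy they numbered 324 (10.9%) and 52 (2.21%), where 55.7% of all windows separated by treatment were FT-only. Over all MDT windows the shares were 5.06% at an equal number of peaks and 3.78% at equal occupancy. The best-scoring FT-only loci of this kind were chr17:77322001-77323000, chr3:168747001-168748000 and chr9:45451001-45452000. At the first, tag counts were 8 and 6 in Sham and 16 and 13 in FT, under peaks of 1900 and 1800 bp against 2100 bp in both FT libraries. Score percentiles there were 75.4 and 68.4 in Sham and 86.0 and 85.4 in FT. Sham peaks covered part of the window at each of these FT-only loci, by 243 to 407 bp. The best-scoring Sham-only loci were chr6:9792001-9793000, chr2:255077001-255078000 and chr17:76318001-76319000, and at the last the nearest peaks of both FT libraries were 199 bp away. Both Sham peaks at the last overlapped a peak of each FT library elsewhere along their length.

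Among the 21 regions with 2 libraries per treatment, MDT stood in the middle. Its log2 ratio of the treatment division to the others, at an equal number of peaks, was 0.998 and ranked 11 of 21, between -0.48 in venDG and 3.15 in PLC, the prelimbic cortex. At equal occupancy it was 1.06 and ranked 12. FT-only windows made up 82.5% of those it separated by treatment at an equal number of peaks (median over regions 83.1%) and 55.7% at equal occupancy (median 58.2%). Its log2 ratio of peak number, 0.17, ranked 16, and that of the median width, 0.13, ranked 10. In 13 of the 21 regions each FT list exceeded each Sham list in length, and in 0 the reverse held, so the direction in MDT was shared with most regions.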

How the data were processed

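H3K27ac was profiled by ChIP-seq, and the authors called peaks with DFilter on each library on its own, with replicates not pooled. The submitters' processing notes name BWA and the build Rn5, with versions of DFilter and BWA not given in the sources used here. The lists have 8 columns, with the bounds and centre of each peak among them. The deposited filter score (the highest in a peak) and the deposited normalised tag count, a score rounded to whole numbers, were used to rank peaks within a list. The deposited −log10 p-value per peak was used as a stricter threshold (at least 10), and the deposited false discovery rate, a percent, was 0 throughout and not used. The lists hold no read counts, so depth and its precision are unknown.

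Starts were read as counting from 0 and are printed counting from 1. Windows of 1 kb were occupied at 50% coverage. Lists were used in full, reduced by score to the shortest of the 4 (39756 peaks), or reduced to an equal number of occupied windows. Groups came from the sample labels. Comparisons used exact two-sided permutation over the 3 ways to divide 4 libraries. By the study's methods, Sham and FT samples of the same replicate number were handled in parallel. Over 93154 windows, replicate 1 minus replicate 2 in Sham correlated at -0.019 with the same difference in FT, so libraries of the same number did not deviate together. The procedures were tested on simulated data. Python 3.11, numpy and pandas were used.

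Loci named were the 6 of best score in the weaker of the libraries that hold them on full lists, the 4 longest on reduced lists (ties by score), the 3 of best score in no other region, and the 4 shared elements with the largest rank difference, per direction. These elements were taken from those whose ranks did not overlap between treatments. Those free of peaks in the other treatment were added after values were seen. The members, lists and rules were chosen with earlier results of these data known. Genes of Rn5 were not looked up, so marker and gene lists planned for MDT were not applied and loci carry no gene names.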

Additional observations from a re-analysis of the deposited data

How the results depend on the processing

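The limits are those of 2 pools per treatment, unknown depth, and calls at an edge: moving a peak border by a few bases can change a window. Over 126 recomputed values, 60 stayed within a set limit, 64 moved and 2 reversed. For list and width ratios the limit was the spread between libraries, and for counts it was 1.5 times. Ratios of the treatment division to the others were held to the spread between the replicate and crossed counts. Shares active elsewhere were held to the Wilson interval of the main value. The causes were not tested. The reversed values were the log2 ratio of the treatment division at an equal number of peaks without FT replicate 1 (-0.025) and without FT replicate 2 (-0.091).

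Windows of 500 bp separated 15425 windows on full and 12020 on reduced lists, and windows of 5 kb 509 and 492, with ratios of 2.13 and 2.09. At an equal number of occupied 5 kb windows, chosen after seeing the data, 388 were separated with a ratio of 2.56. Peak centres gave ratios of 0.58 and 0.40, with FT-only shares of 73.9% and 58.6%. A −log10 p of at least 10 gave a ratio of 1.53 on full lists, 3380 windows on reduced lists, a log2 ratio of 0.074 for the median width and 0.090 in shared elements, and 3463 elements of higher and 3713 of lower rank. The 10000 and 5000 best peaks separated 1549 and 759 windows, with ratios of 0.81 and 0.61. Counting a window as empty only where no base was covered, chosen after seeing the data, left 3327 windows on full and 2509 on reduced lists, the latter with a ratio of 0.78. Windows shifted by 500 bp, also chosen after seeing the data, gave ratios of 1.19 and 0.997. Tag count per kb gave 9461 elements of higher rank.

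The share of FT-only windows active elsewhere was 82.0% for at least 2 other libraries, 70.4% for at least 5 other regions, 83.8% with the other regions' lists reduced, 83.5% on full MDT lists, and, chosen after seeing the data, 89.1% at equal occupancy and 75.5% without any Sham base. For Sham-only windows the values were 95.2%, 87.3%, 95.8% and, without any FT base, 95.6%. It was above the FT-only share under each of these settings. Leaving out HB gave 85.5% and 97.3%.

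Leaving out each replicate in turn gave log2 ratios of 0.048 to 0.31 for peak number, 0.17 to 0.41 for covered length, 0.087 to 0.18 for median width and 0.087 to 0.15 for width in shared elements. Separated windows were then 14750 to 20781 on full and 12090 to 17877 on reduced lists, since fewer libraries had to differ, with ratios of 0.040 to 0.88 and -0.091 to 0.94. Elements of higher rank were 7679 to 12861 and of lower rank 9804 to 16221. Shares active elsewhere were 84.9% to 91.3% for FT-only and 89.4% to 98.1% for Sham-only windows, a range in which the order of the shares was not kept without Sham replicate 1. The replicate block gave ratios of 1.04 on full and 0.90 on reduced lists against the crossed division alone (smallest exact p 0.5), 0.18 for peak number, and 7440 and 9549 elements of higher and lower rank, and changed no direction.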
